A study of Mus musculus with 9 samples.

Results

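The genes described here are 8 markers of adipose progenitor cells and fibroblasts, *Pdgfra*, *Pdgfrb*, *Cd34*, *Ly6a*, *Dpp4*, *Pi16*, *Dpt* and *Thy1*. They were chosen by name, by an exact match to the gene symbol in the RNA-seq tables of 9 mouse brown adipose libraries, and 8 of 8 were found among the 24356 symbols listed. Each was above 0 in every library, so 8 of 8 were among the 14675 genes tested. The study compared mice lacking growth hormone releasing hormone (GHRH-KO) with littermate wild-type (WT) controls to look for transcripts that differ with growth hormone deficiency. The libraries were made from poly(A) RNA of frozen whole brown fat, 4 from mice labelled KO (2 female and 2 male) and 5 from mice labelled WT (3 female and 2 male). Mice of both genotypes came from a mixed background of C57BL6 and 129SV and were fed chow freely. No treatment, tissue-specific promoter or Cre is named for any group, and the age of the mice is not given in the sources used here. Within a group, libraries carry numbers that follow the animal numbers of their titles.

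The values are FPKM, fragments scaled by the authors to transcript length and to the size of the library. The targeted gene was listed above 0 only in the libraries labelled KO, which taken alone runs against the labels. In the 4 libraries labelled KO, *Ghrh* was at 0.846, 0.233, 0.799 and 0.470 FPKM, and each of the 5 labelled WT listed it at 0. *Igf1*, which growth hormone raises in many tissues, was at 0.713, 0.892, 2.46 and 1.28 FPKM in the KO libraries and at 5.66, 4.75, 2.68, 2.13 and 8.80 FPKM in the WT libraries (log2 difference -1.84, limma adjusted p 0.0661), so that 3 of the 4 KO libraries lay below every WT library, and it was chosen after its values were seen. From the same libraries the paper also gives IGF-I as higher in WT animals, though short of its threshold. What the low *Ghrh* values come from was not tested. KO and WT therefore stand for the labels throughout, and every direction given is that of the library labelled KO against the library labelled WT. Summed FPKM per library ran from 380558 to 443569, and depth relative to WT female 1, read from the commonest ratio between low values, ran from 0.919 to 1.14. KO male 1 stood apart, with Spearman correlations to the other libraries of 0.924 to 0.934, while those among the other 8 ran from 0.958 to 0.991. The difference of each member over both sexes is therefore also given without it. *Ucp1*, the uncoupling protein that defines brown adipocytes, was between 1357 and 2992 FPKM in the 9 libraries.

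Beside adipocytes, vessels and immune cells, adipose tissue holds fibroblast-like stromal cells that lay down collagen, and some of these divide and differentiate into new adipocytes. Platelet-derived growth factor receptor alpha (*Pdgfra*) is the usual marker of these cells, and *Dpp4* and *Pi16* mark the least committed of them, which lie in the connective tissue sheets around the lobules. Most markers of this kind are shared with other cells. *Pdgfrb* is also a receptor of pericytes and vascular smooth muscle, *Cd34* and *Ly6a* are also found on endothelium, and *Thy1* and *Dpp4* are also carried by T lymphocytes. In RNA from whole tissue, fewer cells of a type and less RNA per cell cannot be told apart.

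Promoter sequence was found for 5 of the 8 members in the RefSeq promoter table (GRCm38.p6), namely *Pdgfra*, *Cd34*, *Dpp4*, *Pi16* and *Dpt*. The window of 250 bases before each start was searched on both strands for a C/EBP motif (TTGCNNAA), an EBF motif (TCCCNNGGGA), the TATA box (TATAAA), the CCAAT box and the GC box (GGGCGG). C/EBP and EBF proteins are transcription factors of adipocyte differentiation. 3 windows are shown because they hold a C/EBP or EBF match, which is in capitals together with any other match. Bases annotated as exon of the gene itself were left out, so the *Dpt* window is printed short of its RefSeq start. The *Pdgfra* window is chr5:75152001-75152250 on the plus strand, the *Dpt* window chr1:164796413-164796643 on the plus strand and the *Dpp4* window chr2:62412232-62412481 on the minus strand.
Pdgfra: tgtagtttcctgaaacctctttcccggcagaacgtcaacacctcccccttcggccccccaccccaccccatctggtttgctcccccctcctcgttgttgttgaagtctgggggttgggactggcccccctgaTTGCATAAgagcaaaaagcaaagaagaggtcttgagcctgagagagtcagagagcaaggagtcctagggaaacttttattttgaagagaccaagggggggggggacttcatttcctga
Dpt: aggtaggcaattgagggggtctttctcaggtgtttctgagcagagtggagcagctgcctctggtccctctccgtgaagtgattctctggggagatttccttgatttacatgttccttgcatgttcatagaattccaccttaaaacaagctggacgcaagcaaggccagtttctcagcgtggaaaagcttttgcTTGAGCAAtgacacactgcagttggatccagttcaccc
Dpp4: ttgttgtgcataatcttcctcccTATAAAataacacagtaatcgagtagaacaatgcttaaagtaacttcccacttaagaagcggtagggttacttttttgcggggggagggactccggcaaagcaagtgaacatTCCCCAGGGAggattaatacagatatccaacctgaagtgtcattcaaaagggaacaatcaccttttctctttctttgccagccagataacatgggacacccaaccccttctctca
The C/EBP letters began 118 bases before the RefSeq start in *Pdgfra* and 57 bases before it in *Dpt*, and 9.56% of 32851 promoter windows of 250 bases hold them. In both genes the RefSeq start differs from the GENCODE start given below. The EBF letters began 115 bases before the start of *Dpp4* and are held by 0.779% of windows. The TATAAA letters of *Dpp4* lay 227 bases before the start, and 12.4% of windows hold them. The *Pi16* window held CCAAT, found in 33.8% of windows, and *Cd34* held none of the 5 motifs. By the GENCODE annotation the *Pi16* window lies inside the gene and overlaps its own exon. The GC box, held by 32.7% of windows, was in none of the 5 members' windows. A match to such short letters is a description of the sequence and not a binding site.

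The members spanned a wide range of levels. In the WT libraries the mean was highest for *Ly6a* (44.4 ± 9.51 FPKM, SD, n = 5) and *Dpt* (29.6 ± 7.61), followed by *Cd34* (14.8 ± 3.65), *Pi16* (12.4 ± 2.71), *Pdgfrb* (9.15 ± 0.853), *Thy1* (6.31 ± 2.66), *Pdgfra* (3.86 ± 0.863) and *Dpp4* (0.662 ± 0.215). The neighbours *Cd34* and *Pi16* differed by less than the SD of either, and *Thy1* and *Pdgfra* by less than the SD of *Thy1*. In this order the progenitor marker *Dpp4* was lowest in the WT libraries and the haematopoietic and stromal surface protein *Ly6a* was highest. An annotated gene on the opposite strand overlaps *Pdgfra*, *Cd34*, *Dpp4*, *Pi16* and *Dpt*, and whether the estimation used the strand is not given in the sources used here. Of the 50-base stretches of *Ly6a*, 19.0% also occur in other genes (*Ly6c1*, *Ly6i* and I830127L07Rik), so its level is uncertain where reads were split between these copies.

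**Figure D1:**
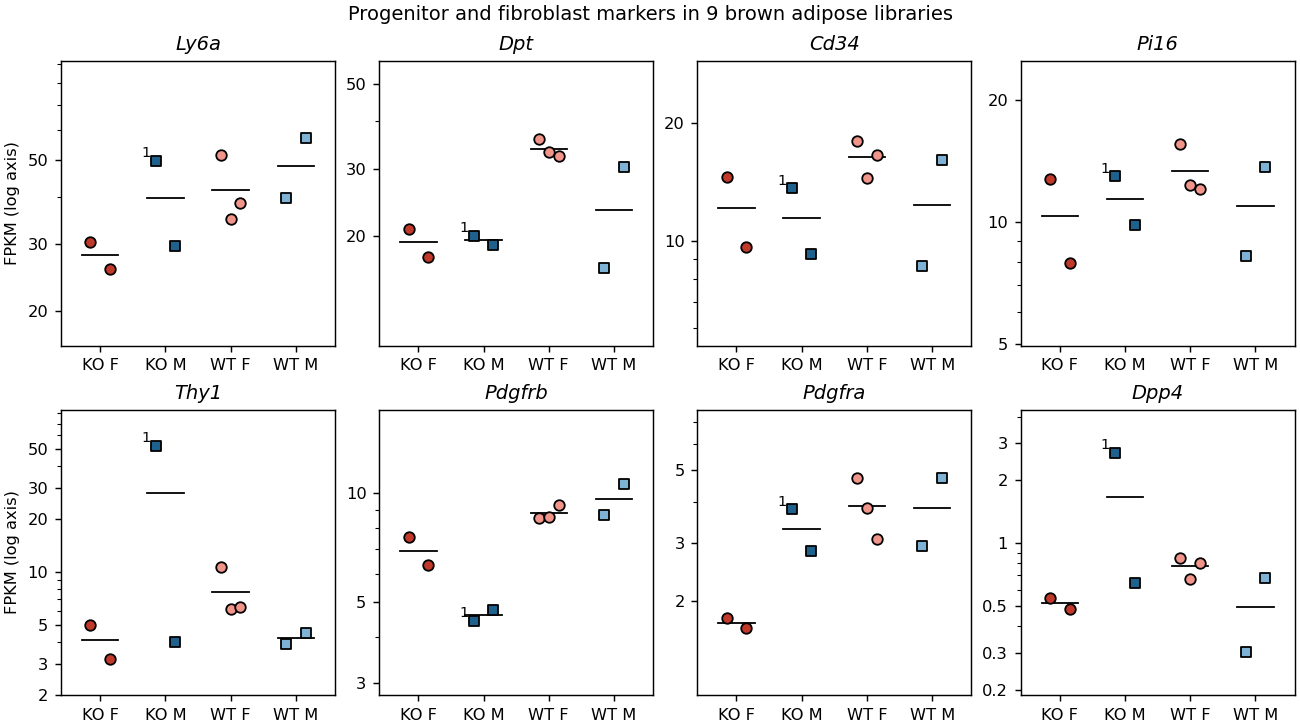
FPKM of the 8 markers on log axes, 1 panel per gene and 1 point per library, with circles for females (F), squares for males (M), a bar at each group mean and the number 1 beside KO male 1. The 4 KO points of *Pdgfrb* (4.44 to 7.56) lie below the 5 WT points (8.56 to 10.6), and KO male 1 is far above the other libraries in *Thy1* (52.2) and *Dpp4* (2.68).

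KO and WT libraries were first compared over both sexes with limma, a linear model of log2 FPKM that shares the variance estimate over genes, with a mean for each genotype and sex and p-values adjusted by Benjamini-Hochberg over all genes tested. Of the 8 members, 1, *Pdgfrb*, was called lower in KO at a limma adjusted p under 0.05, where 2.17% of the 14675 genes were called lower and 3.6% were called in either direction. *Pdgfrb* was also the 1 member whose groups did not overlap, and in 6.04% of all genes every KO library lay below every WT library. At an unadjusted p under 0.05, 3 members were lower (*Pdgfrb*, *Pdgfra* and *Dpt*), against 14.2% of all genes. The mean of 6 of 8 members was lower in KO, and of 8 of 8 without KO male 1. By the log2 difference of the fit to all 9 libraries, 6 of 8 members and 62.5% of all genes were lower. The share of all genes lower without KO male 1 was not counted. The median log2 difference of the members was -0.35 (-0.51 without KO male 1), beside -0.074 over all genes (-0.15 without KO male 1).

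*Pdgfrb* (chr18:61045150-61085061, plus strand, GRCm38, GENCODE M21) encodes the receptor for platelet-derived growth factors B and D on mural and stromal cells. It was at 7.56, 6.33, 4.44 and 4.75 FPKM in KO female 1, KO female 2, KO male 1 and KO male 2, and at 8.56, 8.61, 9.29, 8.70 and 10.6 FPKM in WT females 1 to 3 and WT males 1 and 2. Every KO library was below every WT library, and the 2 KO males were the lowest of all. The mean was 5.77 ± 1.45 FPKM in KO (SD, n = 4) and 9.15 ± 0.853 in WT (n = 5), a log2 difference of -0.71 (SE 0.10, 95% interval -0.94 to -0.48, limma adjusted p 0.0285). An exact permutation test over the libraries gave p 0.00794, two-sided, the smallest p that 4 libraries against 5 allow. That test took no account of sex, and its p was not adjusted for the 8 members. The difference stayed between -0.78 and -0.62 over 18 alternatives, while the adjusted p ran from 0.0124 to 0.105 and was under 0.05 in 8 of them, among them the fit without KO male 1 (-0.68, 0.0389). It was not under 0.05 without KO female 1 (0.105), KO female 2 (0.0792), WT female 1 (0.0664), WT female 2 (0.0793), WT female 3 (0.0682) or WT male 2 (0.0681), nor with the libraries centred on their medians (0.0514). In those 6 fits with a library left out, 8 to 38 genes in all were called.

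*Pdgfra* (chr5:75152292-75198215, plus strand), the receptor that defines adipocyte progenitors, was at 1.78, 1.66, 3.80 and 2.84 FPKM in the KO libraries and at 4.74, 3.82, 3.09, 2.93 and 4.73 FPKM in the WT libraries, in the same order. The KO females were the lowest libraries, KO male 2 was just below the lowest WT library and KO male 1 was within the WT range. The log2 difference was -0.67 (SE 0.20, 95% interval -1.13 to -0.21) with a limma adjusted p of 0.106, and the exact permutation p was 0.0556, two-sided. Without KO male 1 it was -0.77 (limma adjusted p 0.0835), and with single libraries left out it ran from -0.84 to -0.49.

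Besides these 2 receptors, the PDGF list held the ligands *Pdgfa*, *Pdgfb*, *Pdgfc* and *Pdgfd* and the receptor-like *Pdgfrl*. Of its 7 genes, 1 (*Pdgfrb*) was called lower and none was called higher. The median of the list was -0.67. *Pdgfb*, a ligand of the beta receptor, was between 8.06 and 21.9 FPKM in KO and between 10.9 and 18.6 FPKM in WT (log2 difference -0.26, limma adjusted p 0.508). *Pdgfd*, another ligand of that receptor, had a mean of 2.50 FPKM in KO and 4.32 in WT, a difference of -0.76 on the log2 scale with an adjusted p of 0.0668. *Pdgfa*, a ligand of the alpha receptor, had means of 3.51 and 4.18 FPKM (log2 difference -0.26, limma adjusted p 0.507).

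*Dpt* (chr1:164796644-164824266, plus strand) encodes dermatopontin, a small matrix protein made by fibroblasts. It was at 20.9, 17.6, 20.0 and 19.0 FPKM in the KO libraries and at 35.8, 33.2, 32.4, 16.5 and 30.2 FPKM in the WT libraries. The 4 KO values lay close together, and 4 of the 5 WT libraries were above them, with WT male 1 below every KO library. The difference between the groups was -0.51 on the log2 scale (SE 0.17, 95% interval -0.90 to -0.12, limma adjusted p 0.143), and the exact permutation p was 0.0556, two-sided. Without WT male 1 the difference was -0.72 with an adjusted p of 0.00974, without WT male 2 it was -0.29 (adjusted p 0.192) and without KO male 1 it was -0.53 (adjusted p 0.148). Over 18 alternatives the adjusted p ran from 0.00974 to 0.367.

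*Cd34* (chr1:194938819-194961279, plus strand) encodes a sialomucin of progenitor and endothelial surfaces. Its levels were 14.6, 9.64, 13.6 and 9.25 FPKM in the KO libraries and 18.0, 14.5, 16.6, 8.65 and 16.1 FPKM in the WT libraries. The groups overlapped, and WT male 1 was again the lowest library. KO minus WT was -0.27 on the log2 scale (SE 0.23, 95% interval -0.79 to 0.26, limma adjusted p 0.592). With single libraries left out it ran from -0.49 (without WT male 1) to -0.041 (without WT male 2), with -0.41 without KO male 1, -0.42 without KO female 1, -0.12 without KO female 2 and -0.13 without KO male 2.

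*Ly6a* (chr15:74994877-74998031, minus strand) encodes the surface protein Sca-1 used to sort mouse stromal progenitors. It was at 30.5, 25.8, 49.9 and 29.7 FPKM in the KO libraries and at 51.8, 34.9, 38.6, 39.7 and 57.2 FPKM in the WT libraries. 3 KO libraries lay below every WT library and KO male 1 lay among them. This gave a log2 difference of -0.43 (SE 0.20, 95% interval -0.89 to 0.034, limma adjusted p 0.284) and -0.62 without KO male 1 (limma adjusted p 0.0888). Without KO male 2 it was -0.24 (limma adjusted p 0.445), and without WT male 2 it was -0.30 (limma adjusted p 0.606).

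*Pi16* (chr17:29317680-29330593, plus strand) encodes a peptidase inhibitor of the interstitial progenitors. It was at 12.8, 7.93, 13.0 and 9.87 FPKM in the KO libraries and at 15.6, 12.4, 12.1, 8.26 and 13.7 FPKM in the WT libraries. The groups overlapped over most of their range. The log2 difference was -0.15 (SE 0.21, 95% interval -0.64 to 0.33, limma adjusted p 0.770), and it turned to 0.018 without KO female 2 and 0.028 without WT male 2. It was -0.25 without KO male 1, and with single libraries left out it reached -0.34 (without WT male 1).

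*Dpp4* (chr2:62330073-62412231, minus strand) encodes a membrane peptidase of the same progenitors that is also the T cell antigen CD26. It was at 0.549, 0.484, 2.68 and 0.643 FPKM in the KO libraries and at 0.846, 0.674, 0.803, 0.302 and 0.683 FPKM in the WT libraries. KO male 1 was above every other library, and the other 3 KO libraries lay within the WT range. The log2 difference was 0.48 (SE 0.44, 95% interval -0.55 to 1.50, limma adjusted p 0.631). It was -0.039 without KO male 1, so its direction rested on that library, and it was 0.99 without KO male 2, 0.18 without WT male 1 and 0.77 without WT male 2.

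*Thy1* (chr9:44043384-44048579, plus strand) encodes CD90, a surface protein of fibroblasts and of mouse T cells. It was at 4.97, 3.20, 52.2 and 4.00 FPKM in the KO libraries and at 10.7, 6.14, 6.31, 3.91 and 4.51 FPKM in the WT libraries. KO male 1 was far above every other library. The log2 difference was 0.44 (SE 0.67, 95% interval -1.13 to 2.01, limma adjusted p 0.803) and turned to -0.49 without KO male 1 (limma adjusted p 0.244). Without KO male 2, which left KO male 1 as the single KO male, it was 1.37 (limma adjusted p 0.0309).

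**Figure D2:**
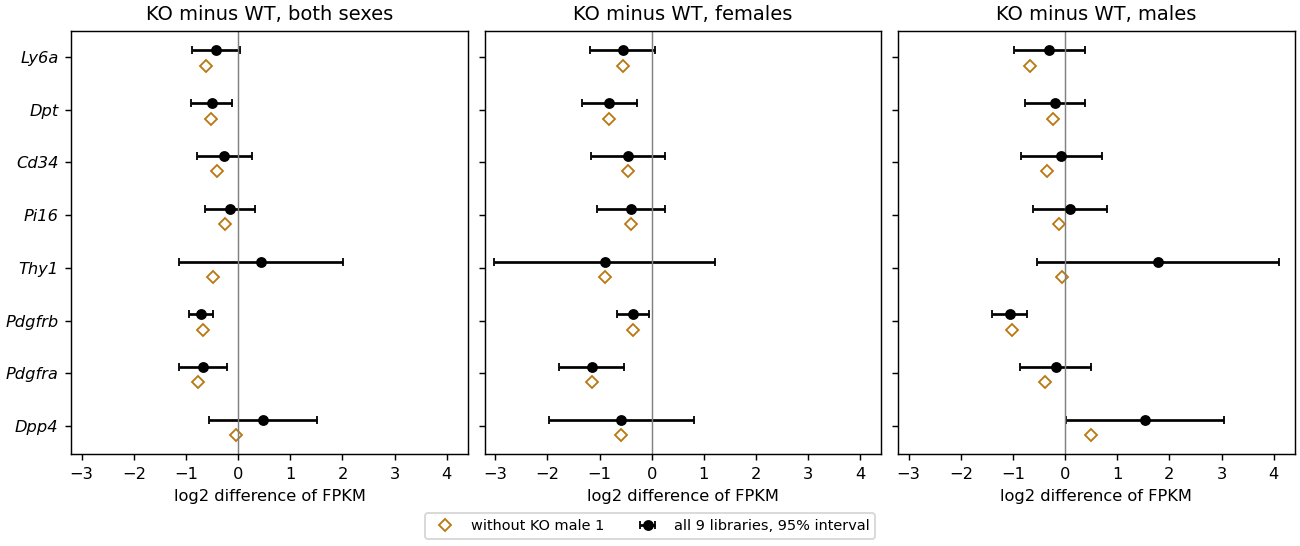
Log2 difference of FPKM, KO minus WT, for each member over both sexes, in females and in males, as black points with 95% intervals of the limma fit, and as open diamonds without KO male 1. Over both sexes the points run from -0.71 (*Pdgfrb*) to 0.48 (*Dpp4*), and leaving out KO male 1 moves *Thy1* from 0.44 to -0.49 and *Dpp4* from 0.48 to -0.039.

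Lymphocyte markers were high in the same library. The 11 lymphocyte markers (*Ptprc*, *Cd2*, *Cd4*, *Cd8a*, *Lck*, the CD3 chains and the B cell genes *Cd79a*, *Cd79b* and *Ms4a1*) summed to 289 FPKM in KO male 1 and to between 2.71 and 6.53 FPKM in the other 8 libraries. *Cd3e*, a chain of the T cell receptor complex, was at 41.7 FPKM there and between 0.259 and 1.10 FPKM elsewhere, and *Cd79a*, a chain of the B cell receptor, was at 36.8 FPKM and between 0.0618 and 0.728 FPKM elsewhere. No lymphocyte marker was called between KO and WT by limma (0 of 10 tested, 0 at an unadjusted p under 0.05, and 0 by the ordinary linear model of the study's methods at an unadjusted p under 0.01), and the high values lay in 1 library. Without KO male 2, which left KO male 1 as the single KO male, 9 of 10 were called higher. The 10 macrophage markers summed to 620 FPKM in KO male 1, to 50.7 to 64.8 FPKM in the other KO libraries and to 81.1 to 191 FPKM in the WT libraries. The difference was below 0 for 10 of 10, with a median of -0.42 on the log2 scale, which was -1.06 without KO male 1 and 0.35 without KO male 2. 1 of them, *Cd163*, was called lower in KO (log2 difference -0.92, adjusted p 0.0347, and -0.99 with 0.0401 without KO male 1). The part of these cells in the members' values was not tested.

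**Figure D3:**
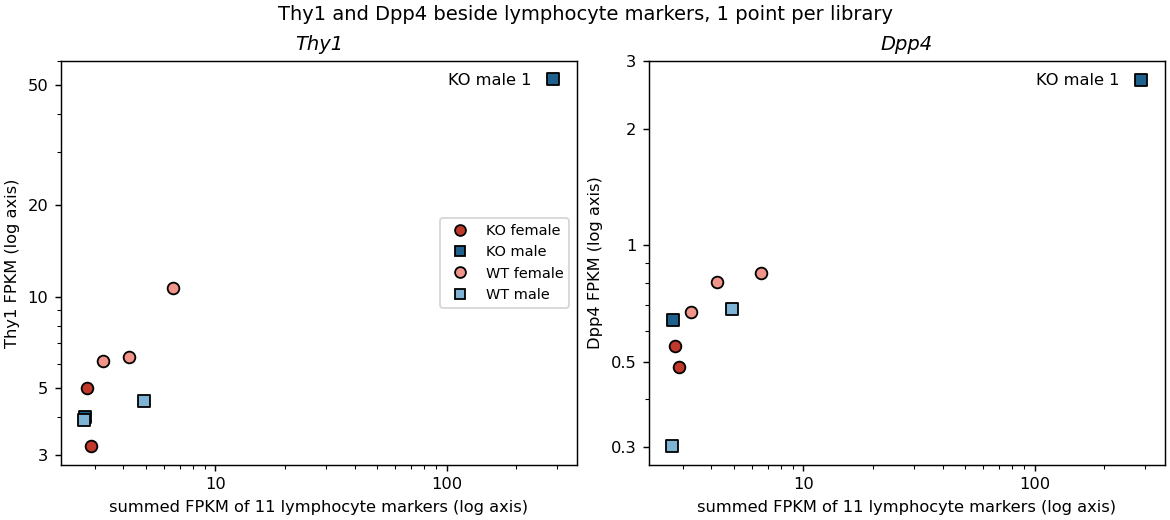
*Thy1* (left) and *Dpp4* (right) FPKM of each library against the summed FPKM of 11 lymphocyte markers, with log axes and 1 point per library. KO male 1 (52.2 FPKM *Thy1*, 2.68 FPKM *Dpp4*, lymphocyte sum 289) lies apart from the other 8 libraries, whose sums are 2.71 to 6.53.

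Genes of early and of committed progenitors were then compared. Of 16 interstitial progenitor markers, *Dpp4* and *Pi16* included, 1 was called lower in KO and none higher, with a median log2 difference of -0.17. The median was -0.38 without KO male 1, -0.32 without WT male 1, -0.064 without WT male 2 and -0.038 without KO female 2, and its direction turned without KO male 2 (0.018). The gene called was *Efhd1*, a calcium-binding protein, at 1.72 FPKM in KO and 2.87 in WT (log2 difference -0.69, limma adjusted p 0.0482). In 12 of the 19 alternatives no gene of this list was called. *Cd248*, the stromal receptor endosialin, was at 3.68 and 6.26 FPKM (log2 difference -0.70, limma adjusted p 0.144). Of 16 markers of committed preadipocytes and other stromal cells, 1 was called lower and 1 higher, with a median of -0.33. *Smoc2*, a matrix-associated calcium-binding protein, was the lower, at 9.65 FPKM in KO and 13.0 in WT (log2 difference -0.42, adjusted p 0.0406, and -0.45 with an adjusted p of 0.0508 without KO male 1). *Cxcl14*, a chemokine, was the higher, at 102 and 61.9 FPKM (log2 difference 0.88, adjusted p 0.0440, and 0.95 with an adjusted p of 0.0532 without KO male 1). *Col15a1*, a basement membrane collagen of preadipocytes, missed the threshold at 4.14 and 9.10 FPKM (log2 difference -1.11, adjusted p 0.0521). Calls of lower genes in these 2 lists ran from 0 to 2 and from 0 to 3 over the 19 alternatives.

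Transcription factors of adipocyte progenitors gave no call by limma in 16 of 17 genes tested, with 1 higher and 1 lower at an unadjusted p under 0.05. By the ordinary linear model 0 were called. In some alternatives, among them median centring and quantile normalization, 1 was called higher. *Tcf21*, a factor of white adipose progenitors, was listed at 0 in every library. *Tbx15*, a factor of brown adipose and muscle precursors, was at 5.33 FPKM in KO and 1.98 in WT (log2 difference 1.30, limma adjusted p 0.0590). Its KO libraries (2.71 to 8.75) lay above its WT libraries (1.24 to 2.60), as in 3.03% of all genes. *Twist1*, a mesenchymal factor, was at 3.31 and 5.81 FPKM (log2 difference -0.77, limma adjusted p 0.0678). *Cebpa*, the C/EBP factor of adipocyte differentiation, was at 160 and 191 FPKM (log2 difference -0.27, limma adjusted p 0.280).

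The matrix genes of fibroblasts were compared because the members were chosen to stand beside them. From the same libraries the paper had already reported extracellular matrix genes as lower in KO, so their calls are not independent of it. Of 28 matrix genes, 12 were called lower in KO and none higher, with a median log2 difference of -0.70. Without KO male 1, 9 were called lower and the median was -0.70, and the count was 1 or 2 without KO female 1, KO female 2, WT female 1, WT female 2, WT female 3 or WT male 2. The 12 were *Col1a1*, *Col1a2*, *Col3a1*, *Col5a2*, *Col6a1*, *Col6a2*, *Col6a3*, *Lum*, *Sparc*, *Postn*, *Thbs1* and *Svep1*. *Col1a2*, a chain of the main fibrillar collagen, was at 9.19 FPKM in KO and 19.6 in WT (log2 difference -1.06, adjusted p 0.0370). *Col6a1*, a chain of the beaded filament collagen, was at 12.6 and 20.7 FPKM (log2 difference -0.69, adjusted p 0.0352). *Svep1*, a large adhesion protein, was at 0.456 and 3.35 FPKM (log2 difference -2.90, adjusted p 0.00356). *Mfap4*, a microfibril protein, had the highest difference of the list, at 1.97 and 1.28 FPKM (log2 difference 0.71, limma adjusted p 0.274). *Dcn*, the proteoglycan decorin and the most abundant of the list per length after *Sparc*, was between 73.5 and 153 FPKM in KO and between 92.2 and 153 in WT (log2 difference -0.24, limma adjusted p 0.605).

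The 2 sets were then put on the same scale, as log2 FPKM minus each gene's mean over the 9 libraries. Since *Thy1* and *Dpp4* followed KO male 1, the mean was taken over the other 6 members. It was -0.16, -0.52, -0.012 and -0.36 in the KO libraries and 0.46, 0.19, 0.20, -0.23 and 0.43 in the WT libraries. KO and WT overlapped through WT male 1. The mean of the 28 matrix genes was -0.42, -0.48, -0.29 and -0.42 in KO and 0.59, 0.33, 0.29, -0.12 and 0.53 in WT, with no overlap. KO minus WT was -0.47 for the 6 members and -0.73 for the matrix genes (-0.56 and -0.77 without KO male 1). Within a library, matrix minus members was -0.14 ± 0.15 in KO (SD, n = 4) and 0.11 ± 0.021 in WT (n = 5). The highest KO library (0.033) lay below the lowest WT library (0.090). The choice to leave out *Thy1* and *Dpp4* was made after their values were seen, and no test was run on this difference. With 8 members, matrix minus members was -0.26 ± 0.44 in KO and 0.21 ± 0.082 in WT, again with no overlap (highest KO 0.10, lowest WT 0.13).

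**Figure D4:**
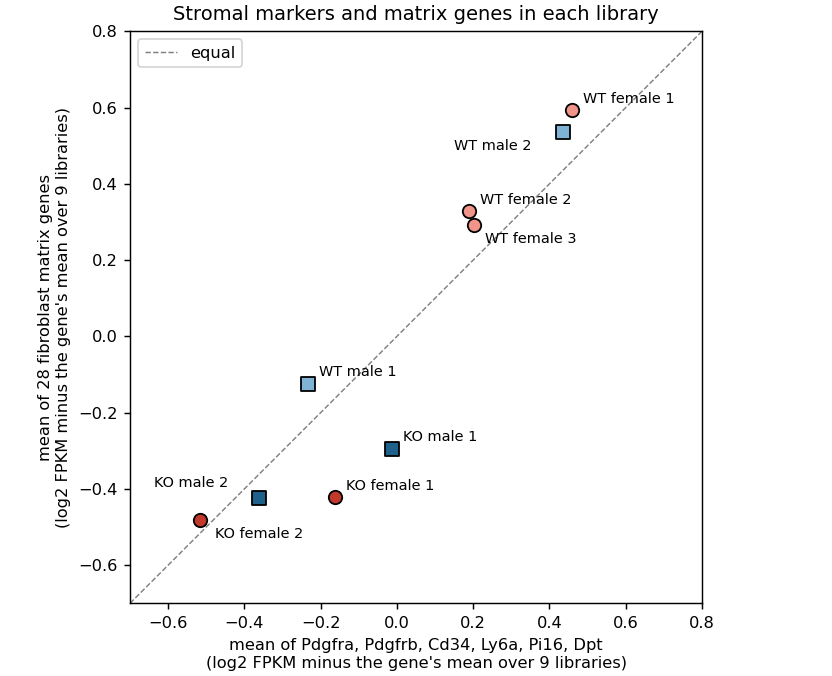
Mean centred log2 FPKM of 28 matrix genes against that of 6 members (*Pdgfra*, *Pdgfrb*, *Cd34*, *Ly6a*, *Pi16* and *Dpt*), 1 point per library, with a dashed line where both are equal. The 5 WT libraries have a difference of 0.090 to 0.14 from the line, and the 4 KO libraries one of -0.28 to 0.033.

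Other cell types were read from lists of their markers. Of 12 mural cell markers, 2 were called lower and 1 higher, with a median of -0.58. The difference was below 0 for 10 of 12, as it was for 62.5% of all genes. At an unadjusted limma p under 0.05, 8 were lower, as were 14.2% of all genes, and 1 was higher. Over the 19 alternatives 0 to 3 were called lower and 0 or 1 higher, none in 9 of them (among these without KO female 1, KO female 2, any 1 WT female or WT male 2), while the median ran from -0.63 to -0.46. *Myh11*, the smooth muscle myosin, was at 4.02 FPKM in KO and 6.22 in WT (log2 difference -0.65, limma adjusted p 0.0352), and *Mcam*, an adhesion protein of pericytes and endothelium, was at 9.39 and 19.8 FPKM (log2 difference -1.03, limma adjusted p 0.0357). *Des*, the muscle intermediate filament, was the higher, at 127 and 44.3 FPKM (log2 difference 1.59, limma adjusted p 0.0352). *Steap4* was at 14.2 and 49.2 FPKM (log2 difference -1.64, limma adjusted p 0.0670). *Rgs5*, *Cspg4* and *Notch3* had log2 differences of -0.49, -0.60 and -0.59 (limma adjusted p 0.0934, 0.0749 and 0.0679). *Abcc9* and *Kcnj8*, the channel subunits of pericytes, had log2 differences of 0.024 and -0.18 (limma adjusted p 0.967 and 0.462). The part of mural cells in the *Pdgfrb* difference was not tested. Of 12 endothelial markers, none was called by limma, 4 were lower at an unadjusted p under 0.05, none was called by the ordinary linear model, and the median was -0.28. Schwann cell markers gave 0 calls of 8 by limma, with 1 lower at an unadjusted p under 0.05 and 0 by the ordinary linear model. Mesothelial markers gave 0 calls of 4 tested by limma, with 1 higher and 1 lower at an unadjusted p under 0.05 and 0 by the ordinary linear model, and their sum was 62.0 FPKM in WT female 1 and 1.01 to 15.3 FPKM in the other libraries. In WT female 1 that sum lay mostly in the keratin genes *Krt19* (25.1 FPKM), *Krt18* (22.9) and *Krt8* (12.9). There *Lrrn4* was at 0.954 FPKM, *Upk1b* at 0.0747, *Msln* at 0.0205, and *Wt1* and *Upk3b* at 0.

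Muscle and adipocyte markers were read in the same way. The 12 skeletal muscle markers were higher in KO by a median of 2.28 on the log2 scale, and 3 were called higher (*Acta1*, *Myh1* and *Mylpf*). Without KO male 1 none was called and the median was 2.06, and over the 19 alternatives 0 to 12 were called (12 without WT male 1, 7 among genes with a mean of at least 1 FPKM and 5 without KO male 2), while the median ran from 1.71 to 2.88. Their sum was 2843 to 12003 FPKM in the KO libraries and 433 to 2366 FPKM in the WT libraries, without overlap. The white and general adipocyte markers summed to 1636 to 3034 FPKM in KO and 2784 to 6219 FPKM in WT, and 1 of 9 tested was called lower, *Lep*, the adipocyte hormone leptin, at 1.37 and 12.0 FPKM (log2 difference -3.21, adjusted p 0.0426, and -2.83 with an adjusted p of 0.0636 without KO male 1). Without WT male 1, 5 of the 9 were called lower. Brown adipocyte markers gave 0 calls of 9 by limma, 3 higher and 2 lower at an unadjusted p under 0.05, and 1 call higher by the ordinary linear model. Among them *Ucp1* was at 2504 and 1820 FPKM (log2 difference 0.52, limma adjusted p 0.0739). FPKM is a share of the library, and the part of the muscle transcripts in the lower values of the members was not tested.

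**Figure D5:**
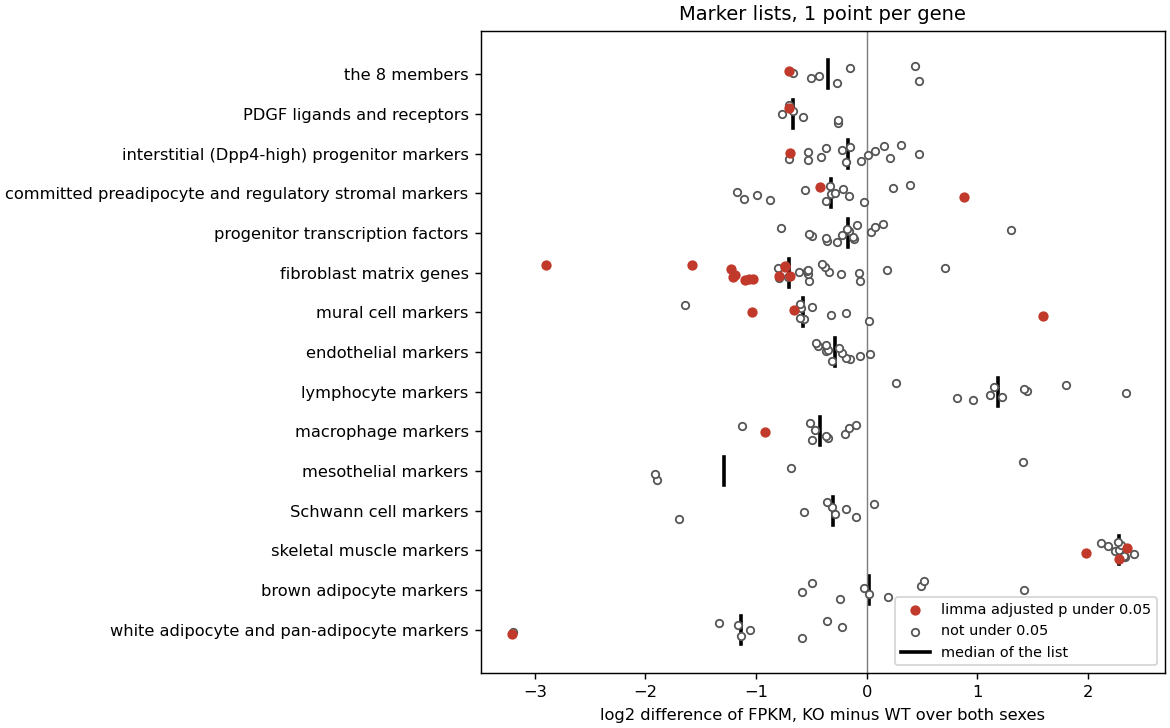
Log2 difference of FPKM, KO minus WT over both sexes, for the genes of each list, 1 point per gene, filled where the limma adjusted p was under 0.05, with a black bar at the median of the list. The matrix genes (median -0.70, 12 filled) lie further to the left than the 8 members (median -0.35, 1 filled), and the muscle markers lie to the right (median 2.28).

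The sexes were compared for the members in the same fit. In females the median difference was -0.57 and 8 of 8 members were lower in KO, beside 60.2% of all genes. In males it was -0.13 and 5 of 8 members were lower, beside 60.1% of all genes. Over all genes the median was -0.072 in females and -0.083 in males. Without KO male 1 the median in males was -0.29 and 7 of 8 members were lower, beside -0.22 over all genes. No member was called by limma in females, where 0.0204% of genes were called, with 3 members and 12.7% of genes at an unadjusted p under 0.05 and 0 members by the ordinary linear model. No member was called by limma in males, where 0.0136% of genes were called, with 2 members and 16.6% of genes at an unadjusted p under 0.05. The ordinary linear model called 1 member (*Pdgfrb*) in males. The share of all genes called by that model was counted only for KO minus WT over both sexes, where it was 7.54%. *Pdgfra* was lower in females by a log2 difference of -1.15 (95% interval -1.77 to -0.53, limma adjusted p 0.168), beside -0.18 in males (95% interval -0.86 to 0.50, limma adjusted p 0.817), and in males without KO male 1 it was -0.39 (limma adjusted p 0.560). *Pdgfrb* had the opposite order, with -0.35 in females (95% interval -0.66 to -0.042, limma adjusted p 0.340) and -1.06 in males (95% interval -1.40 to -0.72, limma adjusted p 0.0659, and -1.01 without KO male 1). *Dpt* was at -0.82 in females and -0.20 in males.

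Whether genotype acted differently in the sexes was tested by the interaction. Limma called 0 of 8 members and 0% of genes, with 3 members and 7.01% of genes at an unadjusted p under 0.05 and 0 members by the ordinary linear model. The interaction, male minus female of the KO minus WT difference, was 0.97 for *Pdgfra* (limma adjusted p 0.694), -0.71 for *Pdgfrb* (limma adjusted p 0.624) and 2.11 for *Dpp4* (limma adjusted p 0.697). Without KO male 1 that of *Dpp4* was 1.08, that of *Pdgfra* 0.76 and that of *Pdgfrb* -0.66. Between the sexes over both genotypes, limma called 0 members and 0.0136% of genes, with 1 member (*Pdgfrb*, -0.23 male minus female) and 10.4% of genes at an unadjusted p under 0.05 and 0 members by the ordinary linear model.

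The members varied together in part. Over the 9 libraries the Pearson correlation of log2 FPKM was 0.93 between *Cd34* and *Pi16*, 0.87 between *Cd34* and *Dpt* and 0.87 between *Pdgfra* and *Ly6a*. These are descriptions of 9 libraries that share genotype, sex and FPKM scaling. *Dpp4* and *Thy1* correlated at 0.92, and at 0.68 over the 8 libraries without KO male 1. *Dpt* and *Thy1* went the other way, from 0.13 to 0.83 without it. *Pdgfrb* correlated at 0.28 with *Pdgfra*, at 0.46 with *Cd34* and at 0.32 with *Ly6a*, and at 0.54, 0.64 and 0.75 without it.

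Among genes with a mean of at least 1 FPKM, those with the pattern most like each member over the 9 libraries were *Srpx* (Pearson r 0.98) for *Pdgfra* and *Tjp1* (0.99) for *Pdgfrb*. For *Dpt* it was *Tax1bp3* (0.98), for *Cd34* *Arhgef25* (0.97), for *Ly6a* *Plekha1* (0.98) and for *Pi16* *Klc1* (0.96). *Tjp1*, a tight junction protein, ran from 6.06 to 10.9 FPKM. For *Dpp4* it was *Cmtm7* (0.99), a membrane protein at 1.18 to 10.2 FPKM, followed by the B cell coactivator *Pou2af1* (0.97) at 0.0149 to 9.58 FPKM. For *Thy1* the most like was *Cnn2* (0.98), an actin-binding protein at 5.37 to 44.9 FPKM. The highest value of *Cmtm7*, of *Pou2af1* and of *Cnn2* came with KO male 1, the library with the lymphocyte sum of 289 FPKM.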

How the data were processed

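The 9 libraries were sequenced by the authors as paired 50-base reads of poly(A) RNA. Their methods and processing notes name bcl2fastq 1.8.4, TopHat2 2.0.11, Bowtie and mm10 (GRCm38). The deposited values are the authors' FPKM, 1 table per library. Fragment counts are not analysed here, so relative depth was read from values between 0.001 and 0.15 FPKM, and no counting interval was made. Log2 FPKM of the 14675 genes above 0 in all 9 libraries were fitted with limma 3.58.1 (R 4.3.3), with a mean per genotype and sex, a mean-variance trend and Benjamini-Hochberg adjustment over all genes at 0.05. The ordinary linear model of the methods (p under 0.01) was an alternative. Exact permutation tests over the libraries were two-sided, took no account of sex and used a pseudocount of 0.01. Their p-values were not adjusted. Genes other than members were named by lowest unadjusted p (up to 4 per list, 8 for matrix genes), by the extreme log2 differences of a list, or by correlation. The other matrix genes called, *Cd3e*, *Dcn*, *Pdgfb*, *Rgs5*, *Cspg4*, *Notch3*, *Abcc9*, *Kcnj8* and *Igf1* were added after their values were seen. The recomputation of list counts under each alternative was also added then. Members and lists were chosen with earlier results of these data known. The fit was run on simulated data with independent noise for each gene. Those data held no effects shared by the genes of a library, so the run does not bear on such effects. Python 3.11.15, pandas 2.3.3 and scipy 1.17.1 were used. Gene positions are from GENCODE M21. 1 gene of the lymphocyte list is not reported here and was left out of its sums and counts.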

Additional observations from a re-analysis of the deposited data

Results flagged for a closer look

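In 44 group values (the members and the summed marker lists in KO and in WT), the highest or lowest library was compared with the rest of its group. Dixon's ratio at 95% was used, and 6 values passed. Chance alone passes it in about 1 of 20 groups where values are independent and normally spread. FPKM and their sums were not shown to be so. Some members are also in the lists, and several values share a library, so that rate is no measure of the 6. KO male 1 was far above the other KO libraries in *Thy1* (52.2 FPKM, others 3.20 to 4.97), in *Dpp4* (2.68 FPKM, others 0.484 to 0.643), in the lymphocyte sum (289 FPKM, others 2.72 to 2.88) and in the macrophage sum (620 FPKM, others 50.7 to 64.8). KO female 1 was above the other KO libraries in the sum of the PDGF list (39.2 FPKM, others 24.2 to 26.2). WT female 1 was above the other WT libraries in the mesothelial sum (62.0 FPKM, others 1.30 to 15.3). Its sum lay mostly in the keratin genes *Krt19*, *Krt18* and *Krt8*.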

How the results depend on the processing

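*Pdgfrb*, *Pdgfra*, *Cd34*, *Ly6a* and *Dpt* kept their direction, lower in KO, under every alternative run. With single libraries left out, *Dpp4* ran from -0.039 (without KO male 1) to 0.99, *Thy1* from -0.49 (without KO male 1) to 1.37, and *Pi16* from -0.34 to 0.028 (without WT male 2), with 0.018 without KO female 2. The 1 member called over both sexes fell to 0 with median centring, without the mean-variance trend, with array weights and without the interaction term, and ran from 0 to 2 with single libraries left out (2 without KO male 2, with *Thy1*, and 2 without WT male 1, with *Dpt*). Within a sex, for the interaction and between the sexes, the share of all genes called was counted only in the main fit. The member counts that follow therefore have no such share beside them. In females 1 member, *Pdgfra*, was called with array weights (log2 difference -1.09, limma adjusted p 0.0418). In males 1 was called by the ordinary linear model, and 0 to 3 with single libraries left out (*Pdgfrb*, *Dpp4* and *Thy1* without KO male 2). The interaction gave 0 to 2 (*Dpp4* and *Thy1* without KO male 2) and the sexes 0 to 1 (*Thy1* without KO male 2). Over all genes, the 529 calls became 170 with genes above 0 in at least 1 library and a pseudocount of 0.1, 222 with median centring, 34 without the trend, 55 with array weights, 1107 with the ordinary linear model, and 8 to 1020 with single libraries left out. Of the calls, 60.3% were lower in KO, against 41.4% with median centring and 48.6% with quantile normalization. The 12 matrix genes called lower became 6, 5, 2 and 3 under the first 4 of these settings, and 1 to 14 with single libraries left out. The causes were not tested. Where a library was left out of a group of 2, the lone library was assumed to vary like the other groups. No paired analysis was possible because the labels give each animal its own number and no number is shared between groups. Groups of 2 or 3 libraries limit the precision of every difference within a sex.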
